A study of Mus musculus with 18 samples.

Results

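Atf4 and 9 related genes of the amino acid stress response were followed in lung, liver and colon after dosing with RECTAS, a small molecule (rectifier of aberrant splicing) taken by mouth. The genes were taken by symbol: Atf4, Atf5, Ddit3, Trib3, Chac1, Sesn2, Asns, Psat1, Phgdh and Mthfd2, which fill 11 of 55401 gene rows because Ddit3 has a second identifier. The treated C57BL/6N mice, 7 weeks old, were given 100 mg of RECTAS per kg suspended in carboxymethyl cellulose (0.5% CMC), and the vehicle mice the same CMC without it; each was dosed again 4 h later. RNA came from organs collected at 8 h, counted from the first dose, and all animals thus swallowed CMC. Lung, liver and colon each gave 3 RECTAS and 3 vehicle libraries of polyadenylated RNA, 18 in all. Whether each library is its own animal, whether animals were pooled, and whether 1 animal gave all tissues is not stated in the labels, so a p-value here covers the spread between libraries, which may be technical.

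ATF4 is a bZIP transcription factor whose translation increases when a kinase phosphorylates the initiation factor eIF2, the step shared by amino acid shortage, endoplasmic reticulum stress and haem shortage. Dimers of ATF4 and C/EBP proteins bind C/EBP-ATF response elements (CAREs) near genes for amino acid synthesis, import and charging, and near genes such as Ddit3 and Trib3 that adjust or end the response. Because ATF4 is controlled mainly at translation, its mRNA level is not a measure of its protein. Liver is known for amino acid breakdown and for making glucose from amino acids, while dividing epithelium such as that of the colon makes serine and one-carbon units for nucleotides.

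The genes lie on different chromosomes, except that Trib3 and Chac1 share chromosome 2 and Asns and Mthfd2 share chromosome 6 (GRCm38, GENCODE M21). Atf4 spans chr15:80255184-80257541 on the plus strand, Sesn2 chr4:132492032-132510501 on the minus strand and Atf5 chr7:44812256-44816658 on the minus strand. Trib3 spans chr2:152337422-152344032 on the minus strand, Chac1 chr2:119351229-119354381 on the plus strand and Asns chr6:7675169-7693254 on the minus strand. Psat1 lies at chr19:15904678-15947337, Phgdh at chr3:98313170-98339990 and Mthfd2 at chr6:83305691-83325908, all on the minus strand. Ddit3 (chr10:127290774-127296288, plus strand) shares exons with the row of the second Ddit3 identifier (chr10:127290829-127293753), which was listed at 0 in all 18 libraries, so the values given are those of the longer gene. Atf5 overlaps Il4i1 and Nup62, Ddit3 overlaps Mars and Gm4189, and Psat1 overlaps Gm3329, each on the opposite strand. The kit keeps strand, but the counting setting is not given in the sources used here. The pseudogene Phgdh-ps1 did not exceed 0.08 TPM.

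Promoter windows of 300 bases (RefSeq, GRCm38.p6, 250 before to 50 after each start) were searched on both strands for the CARE, spelled TGATGNAA, and for a CRE-like form, TGACGNAA. The spellings differ by 1 base, and their matches in Chac1 do not overlap. All 10 genes had a window, 12 in total since Atf5 and Psat1 have a pair of starts each. The CARE letters occurred in the windows of Chac1, Trib3 and Asns, 3 of 10 genes, and in 3.97% of all 32851 windows. The CRE-like letters occurred in the Chac1 window alone among these genes, and in 1.59% of all windows. The sites are shown because CAREs are the elements through which ATF4 is known to act, with the matches in capitals. The Chac1 stretch (chr2:119350992-119351228, plus strand) holds the CRE-like match at -250 and the CARE, on the other strand, at -193 relative to the start. The Trib3 site (chr2:152344029-152344056, minus strand) begins its match at position 15, where the CARE is also on the other strand. The Asns site (chr6:7693215-7693242, minus strand) begins its match at -23, on the strand shown and inside an exon of the GENCODE gene. Sesn2 (chr4:132510502-132510706, minus strand) and Atf4 (chr15:80254934-80255183, plus strand) are shown because both lay higher in every RECTAS lung library than in any vehicle one. Their windows hold neither set of letters, which says nothing about sites elsewhere.
Chac1 upstream: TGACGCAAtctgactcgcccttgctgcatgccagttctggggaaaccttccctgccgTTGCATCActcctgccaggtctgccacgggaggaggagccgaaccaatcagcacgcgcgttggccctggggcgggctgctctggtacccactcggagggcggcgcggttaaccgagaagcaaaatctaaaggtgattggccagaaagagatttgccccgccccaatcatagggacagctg
Trib3 site: tagctcaggtTTACATCAgccgggcggg
Asns site: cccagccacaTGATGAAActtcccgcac
Sesn2 upstream: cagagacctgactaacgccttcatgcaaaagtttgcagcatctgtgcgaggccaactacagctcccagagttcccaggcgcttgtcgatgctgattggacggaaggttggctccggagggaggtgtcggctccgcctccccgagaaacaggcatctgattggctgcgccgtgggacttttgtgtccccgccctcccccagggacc
Atf4 upstream: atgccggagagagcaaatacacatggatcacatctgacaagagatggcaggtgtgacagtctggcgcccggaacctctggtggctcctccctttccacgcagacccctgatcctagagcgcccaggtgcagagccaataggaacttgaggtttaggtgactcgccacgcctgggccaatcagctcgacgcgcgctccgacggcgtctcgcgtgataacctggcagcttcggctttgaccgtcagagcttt

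Expression is given as TPM, the share of all transcripts after adjustment for gene length. TPM holds no information on depth, and the precision of single values is therefore unknown. Between 24084 and 25227 genes lay above 0 in a lung library, 19836 to 20502 in a liver library and 23308 to 23874 in a colon library. The labelled tissues carried their markers: summed alveolar type 2 markers reached 39564 to 43381 TPM in RECTAS and 35050 to 38500 TPM in vehicle lungs, summed hepatocyte markers 95032 to 109329 TPM in RECTAS and 89956 to 104902 TPM in vehicle livers, and summed colonocyte markers 1741 to 3007 TPM in RECTAS and 1735 to 2686 TPM in vehicle colons. Hepatocyte markers summed to 9.74 to 532 TPM in RECTAS and 26.9 to 1333 TPM in vehicle lungs, with none of the 5 at 0. All differences are on the log2(TPM + 1) scale, which understates changes of low genes, and were tested with limma at a Benjamini-Hochberg adjusted p of 0.05. A gene was tested in a comparison when 3 or more of its libraries reached 1 TPM.

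The vehicle libraries showed 3 patterns among these genes. By their means as deposited, Atf5, Trib3 and Chac1 were highest in liver and lowest in colon, Trib3 highest there only through vehicle liver library 1. The 4 enzymes Asns, Psat1, Phgdh and Mthfd2 were lowest in liver at under 1 TPM on average. Ddit3, Sesn2 and Atf4 were also lowest in liver, above 1 TPM, and Atf4 itself varied least. Atf5, a bZIP factor related to ATF4 and also raised by eIF2 phosphorylation, had 57.6, 57.1 and 52.0 TPM in lung, 128, 162 and 204 TPM in liver and 14.2, 11.1 and 11.4 TPM in colon. Trib3, a pseudokinase that dampens ATF4 and AKT signalling, had 6.35, 6.22 and 4.13 TPM in lung, 12.1, 3.96 and 5.33 TPM in liver and 0.37, 0.49 and 0.67 TPM in colon. Chac1, which degrades glutathione, had 3.31, 5.44 and 3.0 TPM in lung, 4.90, 7.72 and 6.49 TPM in liver and 0.46, 0.50 and 0.45 TPM in colon. For each of these genes every liver and lung library lay above every colon library, while lung and liver overlapped for Trib3 and Chac1. The log2 differences of liver over colon were 3.62 (SE 0.16) for Atf5, 2.30 (SE 0.32) for Trib3 and 2.31 (SE 0.20) for Chac1 (limma, adjusted p = 4.62e-08, 0.000117 and 4.04e-06; n = 3 each).

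Asparagine synthetase (Asns) averaged 13.6 ± 1.43 TPM in lung, 0.773 ± 0.537 TPM in liver and 12.7 ± 3.15 TPM in colon (SD, n = 3 each, here and for the other enzymes). Psat1 and Phgdh, which act in the path from a glycolytic intermediate to serine, showed the same low liver level. Psat1 averaged 6.62 ± 0.761 TPM in lung, 0.493 ± 0.110 TPM in liver and 4.28 ± 1.01 TPM in colon, and Phgdh 5.11 ± 0.677 TPM in lung, 0.300 ± 0.125 TPM in liver and 6.34 ± 0.809 TPM in colon. Mthfd2, a mitochondrial enzyme of folate metabolism, averaged 3.45 ± 0.496 TPM in lung, 0.683 ± 0.203 TPM in liver and 4.20 ± 1.22 TPM in colon. As ratios of means, lung exceeded liver 17.6-fold for Asns, 13.4-fold for Psat1, 17.0-fold for Phgdh and 5.04-fold for Mthfd2. With libraries scaled by median ratios these became 6.69-fold, 5.23-fold, 6.51-fold and 1.94-fold, and all 4 remained past the threshold (limma, adjusted p between 4.10e-06 and 0.0117). In bulk tissue, fewer cells of a type and less RNA per cell cannot be told apart.

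Ddit3, which encodes CHOP, averaged 31.8 ± 2.02 TPM in lung, 8.58 ± 0.717 TPM in liver and 28.6 ± 2.98 TPM in colon. Sesn2, a leucine sensor that restrains mTORC1, averaged 7.37 ± 1.13 TPM in lung, 2.25 ± 0.366 TPM in liver and 11 ± 0.966 TPM in colon. Atf4 was the most abundant of the 10 in lung and colon, with 155, 151 and 168 TPM in lung, 61.2, 64.3 and 96.4 TPM in liver and 117, 114 and 123 TPM in colon, and in liver it came after Atf5. Its order by tissue depended on scaling: with median ratios it averaged 105 TPM in lung, 126 TPM in liver and 105 TPM in colon. That scaling also put colon above lung for Ddit3 (25.5 and 21.2 TPM) and Asns (11.3 and 9.08 TPM). Within single libraries, where scaling cancels, Atf5 per Atf4 was 0.310 to 0.378 in vehicle lung, 2.09 to 2.52 in vehicle liver and 0.0932 to 0.121 in vehicle colon. Trib3 per Asns was likewise 0.274 to 0.510 in vehicle lung, 6.83 to 14.8 in vehicle liver and 0.0226 to 0.0628 in vehicle colon. Neither ratio overlapped between tissues.

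Of 16715 genes tested between vehicle tissues, many differed, so the members' counts are read against that share. Liver against colon, 3 of 10 were higher (Atf5, Trib3, Chac1) and 7 of 10 lower, where 16.1% of all genes were higher and 63.8% lower. Lung against colon, 5 of 10 were higher (Atf4, Atf5, Trib3, Chac1, Psat1) and 1 lower (Sesn2), against 51% higher and 24.7% lower. Lung against liver, 7 of 10 were higher and 2 lower (Atf5, Chac1), against 74.5% and 13.5%. These shares are near the background. Neighbours that did not pass the test were lung and colon for Ddit3, Asns, Phgdh and Mthfd2, and lung and liver for Trib3, whose difference of -0.20 became 0.21 without vehicle liver library 1. The median difference over all genes was -0.68 for liver over colon, 0.35 for lung over colon and 1.10 for lung over liver, and was -0.0086, -0.0049 and 0.044 after median ratio scaling. Under that scaling Atf4 passed in none of the 3 comparisons, and its sign turned in liver over colon (-0.70 became 0.25) and in lung over liver (1.11 became -0.25). Psat1 lost its call in lung over colon (0.54 became 0.19) and Sesn2 in lung over liver (1.36 became 0.27). Phgdh and Mthfd2 kept their sign and gained a call in lung over colon (-0.27 became -0.59 and -0.21 became -0.50). Trib3 did so in lung over liver (-0.20 became -1.37). The uncalled differences of Ddit3 (0.15 became -0.25) and Asns (0.11 became -0.27) turned sign in lung over colon. Quantile normalisation turned the sign of Psat1 in lung over colon (-0.13) and of Sesn2 (-0.15) and Mthfd2 (-0.079) in lung over liver, all then uncalled. The Atf4 call in lung over colon (difference 0.42, adjusted p = 0.0312) ended without any 1 of the 6 libraries (0.0543 to 0.0905). Chac1 in lung over liver (-0.60, adjusted p = 0.0177) lost its call without vehicle lung library 1 or 3 or vehicle liver library 2 (0.0605 to 0.0682).

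**Figure D1:**
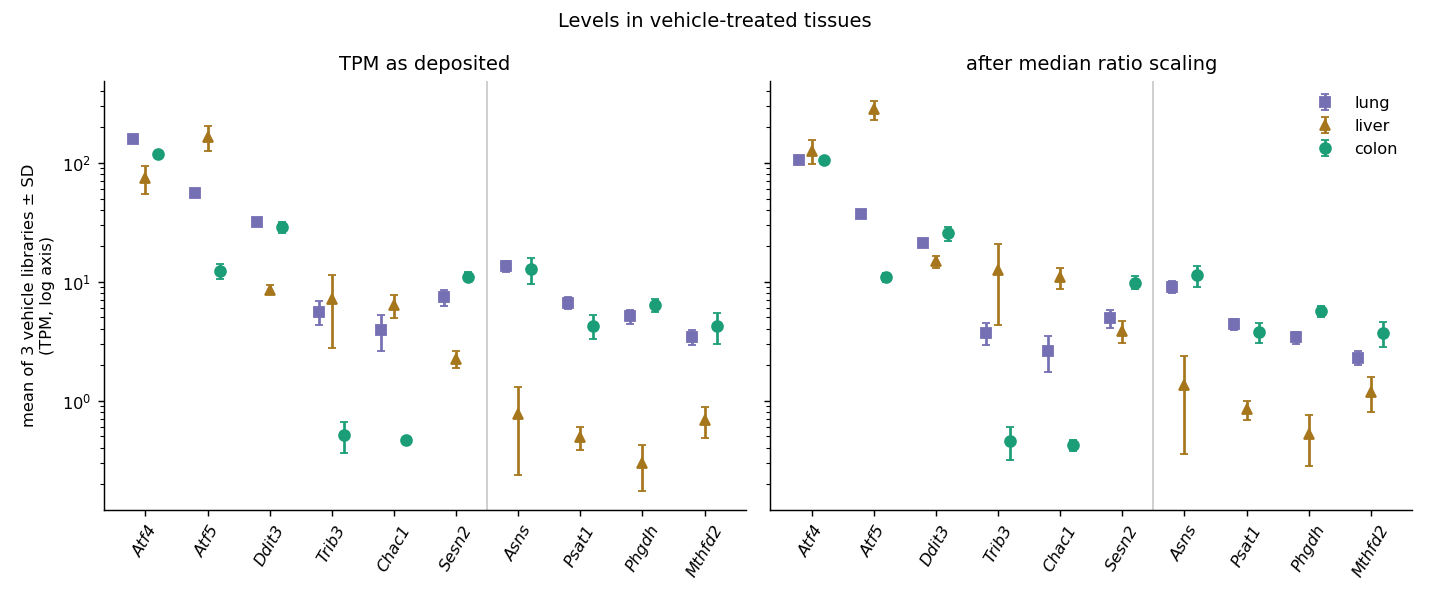
Vehicle levels of the 10 genes, mean of 3 libraries ± SD in TPM on a log axis, as deposited (left panel) and after median ratio scaling (right panel), with lung squares left of liver triangles and colon circles. The enzymes right of the grey line have their lowest point in liver, while Atf5, Trib3 and Chac1 have their lowest point in colon in both panels. The order of tissues changes between panels for Atf4, Ddit3 and Asns.

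RECTAS against vehicle, none of the 10 genes passed the adjusted threshold in any tissue. In lung 10 were tested, in liver 6 (Asns, Psat1, Phgdh and Mthfd2 were under the filter) and in colon 8 (Trib3 and Chac1 were under it). Over all genes 1 of 15699 passed in lung (0.00637%), 2 of 11944 in liver (0.0167%) and 0 of 14282 in colon (0%). At an unadjusted p under 0.05, Sesn2 and Atf4 were higher in lung and Sesn2 and Atf5 in liver, and no member was lower or differed in colon. The background for that rule was 10.7% of genes higher and 1.88% lower in lung, 3.59% higher and 8.03% lower in liver, and 0.805% higher and 0.812% lower in colon.

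In lung, Sesn2 had 11.5, 12.1 and 11.6 TPM with RECTAS, against 6.23, 7.39 and 8.49 TPM with vehicle. All RECTAS lungs lay above all vehicle lungs, and the RECTAS values were close together. The log2 difference was 0.61 (SE 0.11, 95% interval 0.35 to 0.87; limma, unadjusted p = 0.00089, adjusted p = 0.264), and 0.56 after median ratio scaling. Across the alternatives its adjusted p ran between 0.131 and 0.645. Atf4 had 172, 176 and 190 TPM with RECTAS, against 155, 151 and 168 TPM with vehicle. These groups did not overlap either, though the gap between the lowest RECTAS and the highest vehicle lung was smaller than the spread within each group. Its difference was 0.18 (SE 0.07; limma, unadjusted p = 0.0284, adjusted p = 0.349, 0.273 to 0.717 over the alternatives), and 0.12 after scaling, where the all-gene median of 0.058 was removed. Of the 10 genes, 2 had groups apart with RECTAS higher and none lower, where 16.1% of genes were apart and higher and 3.18% apart and lower.

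Other members in lung overlapped between groups. Atf5 had 73.9, 61.7 and 53.6 TPM with RECTAS, against 57.6, 57.1 and 52.0 TPM with vehicle, and its difference of 0.17 became 0.051 without RECTAS lung library 1. Chac1 had 4.77, 4.27 and 1.89 TPM with RECTAS, against 3.31, 5.44 and 3.0 TPM with vehicle. Trib3 had 5.26, 5.27 and 3.68 TPM with RECTAS, against 6.35, 6.22 and 4.13 TPM with vehicle. Both genes were lowest of their RECTAS group in library 3, which had the highest Psat1 (9.40 TPM), Phgdh (6.38 TPM) and Mthfd2 (4.50 TPM) of all lungs. That library also had the highest sum of proliferation markers, 46.5 TPM, where the other RECTAS lungs had 15.9 and 25.1 TPM and the vehicle lungs 23.9 to 33.5 TPM. The part of dividing cells in these values was not tested. The 95% intervals of the 8 members other than Sesn2 and Atf4 all included 0, and the widest, for Chac1, ran between -0.83 and 0.60.

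In liver, Sesn2 had 3.15, 2.76 and 3.44 TPM with RECTAS, against 2.63, 2.21 and 1.90 TPM with vehicle. Every RECTAS liver lay above every vehicle liver, by a narrow margin at the nearest pair. The difference was 0.35 (SE 0.13, 95% interval 0.047 to 0.64; limma, unadjusted p = 0.0291, adjusted p = 0.386, 0.327 to 0.674 over the alternatives). Atf5 had 205, 230 and 207 TPM with RECTAS, against 128, 162 and 204 TPM with vehicle. Its groups were apart by little, because vehicle library 3 nearly reached the RECTAS range. The difference was 0.40 (SE 0.16, 95% interval 0.020 to 0.79; limma, unadjusted p = 0.0418, adjusted p = 0.421, 0.233 to 0.762 over the alternatives), and 0.23 without vehicle library 1. Groups were apart and higher for 2 of the 6 tested members and apart and lower for none, where the shares of all genes were 5.75% and 13%.

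Atf4 had 72.6, 84.9 and 84.1 TPM in RECTAS livers, against 61.2, 64.3 and 96.4 TPM in vehicle livers. The vehicle range thus enclosed the RECTAS range. Trib3 had 5.85, 4.68 and 3.03 TPM with RECTAS, against 12.1, 3.96 and 5.33 TPM with vehicle, a difference of -0.46 (SE 0.37; limma, adjusted p = 0.656) that was -0.055 without vehicle library 1. That library had the highest Trib3 and Asns and the lowest Atf4 and Atf5 of all livers. Chac1 overlapped at 6.23, 5.38 and 4.33 TPM with RECTAS, against 4.90, 7.72 and 6.49 TPM with vehicle, and Ddit3 at 7.92, 9.04 and 10.9 TPM with RECTAS, against 9.03, 8.95 and 7.75 TPM with vehicle. Among the enzymes under the filter, Psat1 was listed at 0.92, 0.64 and 0.92 TPM with RECTAS, against 0.37, 0.53 and 0.58 TPM with vehicle. Its groups were apart at under 1 TPM, and with no filter its difference was 0.29 (limma, adjusted p = 0.609). Asns lay between 0.51 and 0.73 TPM with RECTAS and between 0.36 and 1.38 TPM with vehicle, Phgdh between 0.29 and 0.39 TPM with RECTAS and 0.18 and 0.43 TPM with vehicle, and Mthfd2 between 0.70 and 0.95 TPM with RECTAS and 0.45 and 0.82 TPM with vehicle.

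**Figure D2:**
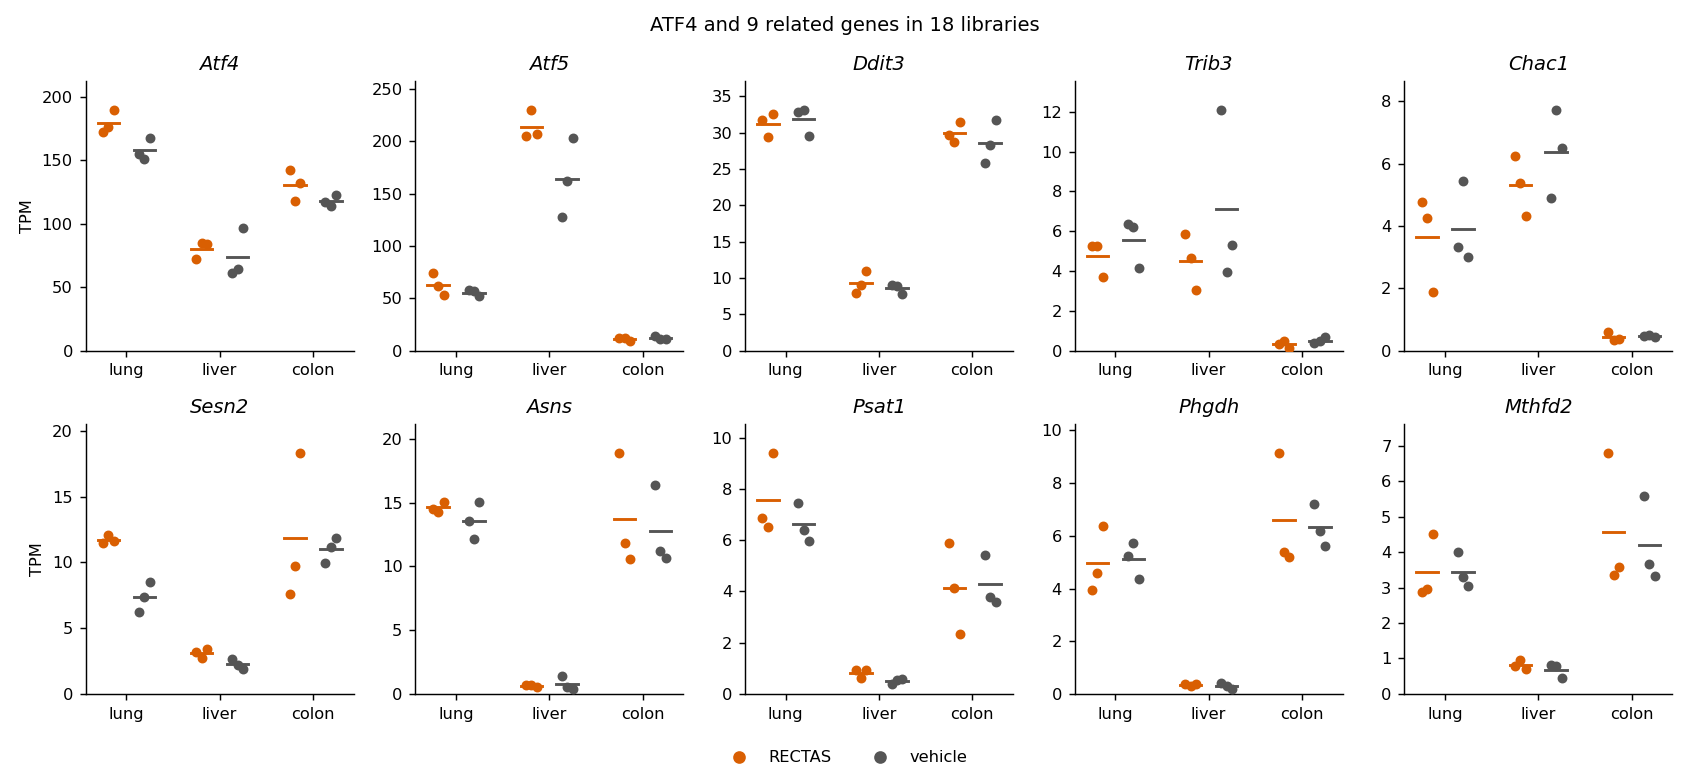
TPM of each gene in every library (points) with group means (bars), RECTAS in orange left of vehicle in grey, for lung, liver and colon. Sesn2 and Atf4 in lung and Sesn2 and Atf5 in liver have all RECTAS points above all vehicle points; Trib3 in liver has 1 vehicle point at 12.1 TPM.

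In colon, Atf4 had 142, 118 and 132 TPM with RECTAS, against 117, 114 and 123 TPM with vehicle, a difference of 0.15 (SE 0.09, 95% interval -0.063 to 0.36; limma, adjusted p = 0.9999). The lowest RECTAS colon lay inside the vehicle range. Ddit3 had 29.6, 28.7 and 31.4 TPM with RECTAS, against 25.8, 28.3 and 31.7 TPM with vehicle, and Atf5 12.3, 12.3 and 9.59 TPM with RECTAS, against 14.2, 11.1 and 11.4 TPM with vehicle. Groups overlapped for both genes. Sesn2 had 7.62, 9.73 and 18.3 TPM with RECTAS, against 9.97, 11.2 and 11.9 TPM with vehicle. The difference of 0.02 therefore rested on RECTAS library 3 and was -0.32 without it. RECTAS library 3 also had the highest colonocyte marker sum of the colons (3007 TPM), the lowest smooth muscle marker sum (901 TPM) and the lowest mitochondrial share (14.6% of TPM, against 16.9% to 17.9% in vehicle colons). The part of cell makeup in these values was not tested. Trib3 lay between 0.13 and 0.50 TPM with RECTAS and 0.37 and 0.67 TPM with vehicle, and Chac1 between 0.35 and 0.60 TPM with RECTAS and 0.45 and 0.50 TPM with vehicle. No member had groups apart in either direction, where 3.43% of genes were apart and higher and 2.01% apart and lower.

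**Figure D3:**
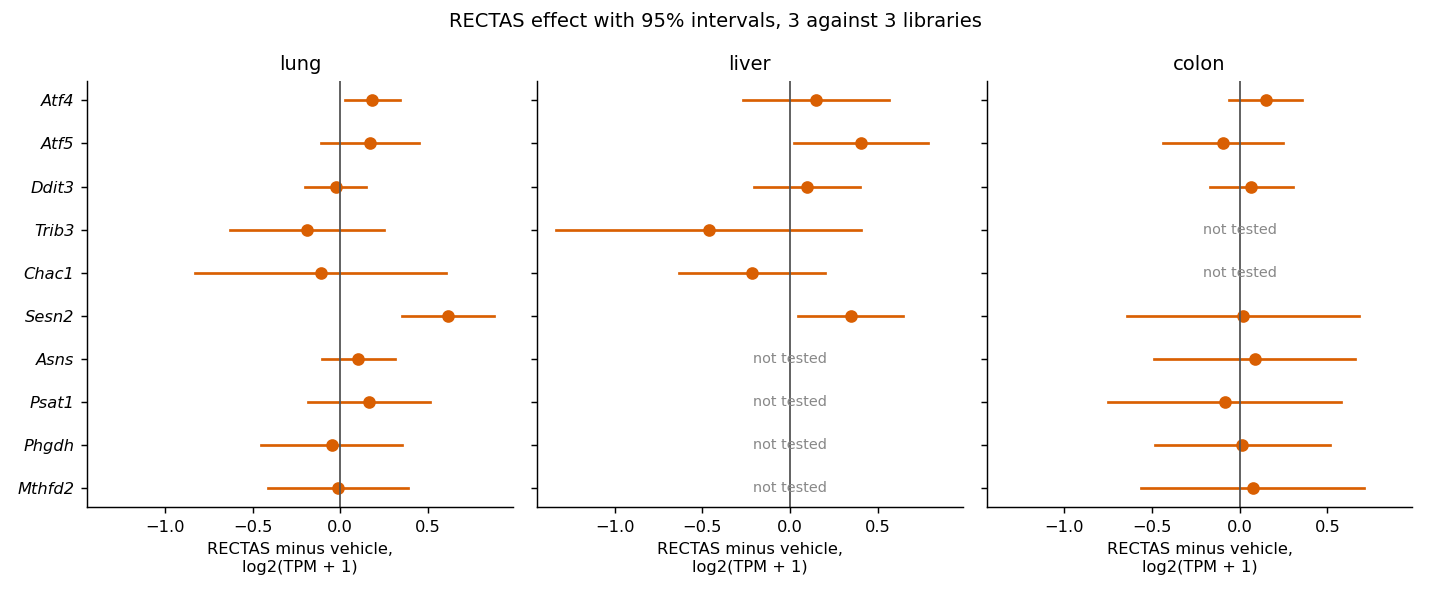
RECTAS minus vehicle differences in log2(TPM + 1) with 95% intervals from limma, one panel per tissue, 3 against 3 libraries. Intervals lie above 0 for Sesn2 and Atf4 in lung and for Sesn2 and Atf5 in liver and include 0 for all other tested members; the p-values behind these intervals are unadjusted.

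The 4 enzymes varied more between colon libraries than between treatments. Asns had 18.9, 11.8 and 10.5 TPM with RECTAS, against 16.4, 11.2 and 10.7 TPM with vehicle. Mthfd2 had 6.79, 3.35 and 3.58 TPM with RECTAS, against 5.59, 3.67 and 3.33 TPM with vehicle. In both groups library 1 was high and the other libraries lay together. Phgdh had 9.14, 5.40 and 5.21 TPM with RECTAS, against 7.21, 6.20 and 5.61 TPM with vehicle, and Psat1 had 5.91, 4.15 and 2.33 TPM with RECTAS, against 5.44, 3.80 and 3.59 TPM with vehicle. Summed, the enzymes reached 40.7 TPM in RECTAS library 1 and 21.7 to 24.7 TPM in the other RECTAS colons, and 34.6 TPM in vehicle library 1 and 23.2 to 24.9 TPM in the other vehicle colons. Summed proliferation markers were 177, 107 and 95.5 TPM with RECTAS, against 136, 139 and 131 TPM with vehicle, so they set RECTAS library 1 apart but not vehicle library 1. Summed smooth muscle markers were 1777, 1735 and 901 TPM with RECTAS, against 3200, 1052 and 961 TPM with vehicle. The part of either cell type was not tested, and the labels do not say what a shared library number means. Without both libraries numbered 1, a choice made after seeing the data, 0 members passed and the differences were 0.028 for Asns, -0.18 for Psat1, -0.13 for Phgdh and -0.011 for Mthfd2, against 0.084, -0.087, 0.015 and 0.073 with them. Without RECTAS library 3 alone they were 0.24 for Asns, 0.19 for Psat1, 0.14 for Phgdh and 0.19 for Mthfd2, so the sign for Psat1 rested on that library, and 0 members passed.

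**Figure D4:**
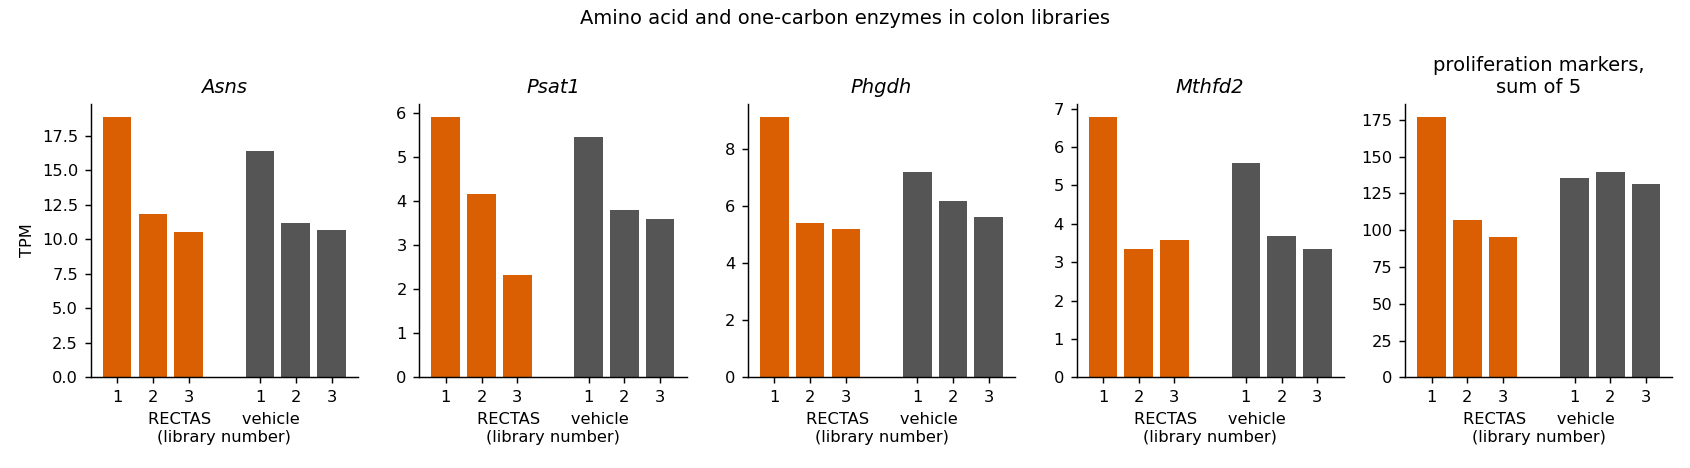
TPM of 4 enzymes and of 5 summed proliferation markers in each colon library (bars from 0), RECTAS in orange left of vehicle in grey. Library 1 has the tallest enzyme bar of its group in both treatments; the proliferation bars show this in the RECTAS group (177 TPM) and not in the vehicle group.

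The RECTAS effects were also compared between tissues in 1 fit of all 18 libraries, and no member passed. An unadjusted p under 0.05 was found for 0 of 10 members in liver against lung, 1 in liver against colon (Atf5) and 0 in lung against colon, where 8.98%, 5.37% and 3.22% of all genes had one, so these counts are near or below the background. Of 17537 genes, 4 passed for liver against lung (0.0228%), 5 for liver against colon (0.0285%) and 2 for lung against colon (0.0114%). The closest members were Atf5 in liver against colon (difference of differences 0.50, SE 0.22, 95% interval 0.034 to 0.96; limma, unadjusted p = 0.0371, adjusted p = 0.885) and Sesn2 in lung against colon (0.59, SE 0.30, 95% interval -0.039 to 1.23; unadjusted p = 0.0640, adjusted p = 1). Averaged over the 3 tissues, a contrast chosen after seeing the data, Sesn2 had a difference of 0.33 (SE 0.12, 95% interval 0.067 to 0.58; limma, adjusted p = 0.375) and Atf4 of 0.16 (SE 0.08, 95% interval -0.0015 to 0.32; adjusted p = 0.514). That contrast called 0.188% of genes, and 0 of the 10.

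After each tissue's mean was subtracted, members resembled each other in few pairs over the 18 libraries (Pearson r on log2(TPM + 1), given as a description, since all points share libraries and cell makeup). Phgdh and Mthfd2 had r = 0.88, Asns and Mthfd2 0.72, Psat1 and Phgdh 0.69, Psat1 and Mthfd2 0.69 and Asns and Phgdh 0.61. In both treatments, each of these enzymes was highest of its group in the colon library numbered 1. The weight of those libraries in these values was not tested. Atf4 had r = 0.48 with Atf5, -0.55 with Trib3, 0.0036 with Ddit3 and -0.18 with Asns, and Sesn2 had -0.38 with Phgdh. Vehicle liver library 1 had the highest Trib3 (12.1 TPM) and the lowest Atf4 (61.2 TPM) of all livers. Its weight in the value for Atf4 and Trib3 was not tested. Among 13980 genes, those most like the members were Rrs1 for Atf4 (0.91), Cad for Atf5 (0.96), Evl for Ddit3 (0.77), Kdm3a for Trib3 (0.86), Scly for Chac1 (0.83), Prr15l for Sesn2 (0.89), Ddx20 for Asns (0.85), Cse1l for Psat1 (0.95) and Phgdh for Mthfd2 (0.88). Each is the highest of 13980 values over 18 libraries, so a high r comes largely with that choice. Only tissue means were subtracted, so differences between RECTAS and vehicle enter every r.

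The wider pathway was counted in 7 lists of related genes in each tissue. The lists were chosen with earlier results of these data known. Their counts beside the share of all genes are therefore a description and not a test. In lung no list member passed the adjusted threshold. At an unadjusted p under 0.05, 7 of 9 tested ATF4 partners and related bZIP genes were higher and 1 lower, with a median difference of 0.39 (0.32 after scaling) beside 0.058 for all genes. Jdp2, a repressor of the AP-1 family, had 28.7, 31.1 and 31.1 TPM with RECTAS, against 23.4, 22.6 and 23.6 TPM with vehicle. Cebpb, a dimer partner of ATF4, had 49.3, 42.4 and 53.8 TPM with RECTAS, against 30.6, 36.7 and 35.2 TPM with vehicle. Cebpg, another partner, had 40.3, 39.5 and 46.7 TPM with RECTAS, against 30.2, 30.8 and 35.1 TPM with vehicle. For each of the 3 genes the groups were apart, with adjusted p between 0.249 and 0.267 by limma. The 3 genes were named for the smallest p of their list, so groups that lie apart come largely with that choice. Of all genes in lung 16.1% were apart and higher. Of 19 tested other ATF4 targets 8 were higher (median 0.16), of 12 ER chaperones 5 (0.059), of 14 upstream kinases and eIF2 subunits 2 (0.094), of 11 amino acid transporters 2 (0.066), of 18 aminoacyl-tRNA synthetases 1 (0.10) and of 12 amino acid and one-carbon enzymes 0 (-0.014), and none of these was lower. Of all genes 10.7% were higher and 1.88% lower by the same rule, so the counts of upstream genes, transporters, synthetases and enzymes are near or below the background. After scaling, which set the median of all genes to 0.0020, these 6 list medians were 0.096 for other targets, -0.0028 for chaperones, 0.036 for upstream genes, 0.0070 for transporters, 0.043 for synthetases and -0.070 for enzymes. Ddit4, an mTORC1 inhibitor like Sesn2, had 52.1, 63.6 and 42.1 TPM with RECTAS, against 16.3, 22.0 and 30.9 TPM with vehicle (difference 1.18, SE 0.24; limma, adjusted p = 0.264). Herpud1, a component of ER-associated degradation, had 206, 208 and 191 TPM with RECTAS, against 142, 163 and 162 TPM with vehicle (0.37, SE 0.07; adjusted p = 0.264).

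In liver, Ddit4 was the single list member past the threshold, with 22.2, 24.2 and 19.7 TPM with RECTAS, against 2.52, 4.43 and 3.67 TPM with vehicle (difference 2.36, SE 0.17; limma, adjusted p = 0.0130). That call ended without RECTAS library 1 (0.0958), 2 (0.238) or 3 (0.133), without vehicle library 3 (0.0854), when unfiltered (0.0778) and under the replicate block (0.0814), within a range of 0.000233 to 0.238 over its alternatives. At an unadjusted p under 0.05, 4 of 18 other ATF4 targets were higher and 2 lower (median difference 0.024, beside -0.038 for all genes), where 3.59% of all genes were higher and 8.03% lower. Sqstm1, an autophagy receptor, had 321, 300 and 320 TPM with RECTAS, against 250, 239 and 245 TPM with vehicle (adjusted p = 0.170 by limma). Soat2, which esterifies cholesterol, had 15.9, 14.8 and 14.9 TPM with RECTAS, against 23.7, 22.7 and 20.7 TPM with vehicle (adjusted p = 0.150 by limma). Among 18 aminoacyl-tRNA synthetases 4 were higher and 0 lower. Their median was 0.21, beside -0.038 for all genes, and 0.11 without vehicle library 1. Yars, the tyrosine enzyme, had 18.1, 21.3 and 19.4 TPM with RECTAS, against 11.9, 15.9 and 16.1 TPM with vehicle. Of 8 tested bZIP genes 3 were higher and 1 lower (median -0.026), among them Cebpb with 64.1, 91.7 and 97.6 TPM with RECTAS, against 21.8, 49.0 and 57.1 TPM with vehicle. The counts were 2 higher and 0 lower of 14 upstream genes (median 0.082), 1 higher and 1 lower of 7 transporters (0.21), 1 higher and 0 lower of 9 enzymes (0.00083) and 1 higher and 0 lower of 12 ER chaperones (0.14). The transporter Slc43a1 was the lower one, with 4.78, 5.85 and 4.34 TPM with RECTAS, against 11.5, 6.56 and 10.6 TPM with vehicle. Without vehicle library 1 the medians were 0.011 for upstream genes, -0.0038 for transporters, 0.13 for enzymes, -0.060 for chaperones, 0.057 for other targets and 0.034 for bZIP genes, so those of transporters, chaperones and bZIP genes turned sign.

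In colon no list member passed. At an unadjusted p under 0.05 only Cebpd, a C/EBP family gene, was higher, 1 of 9 tested bZIP genes. None was higher among 14 upstream genes, 10 transporters, 12 enzymes, 18 synthetases, 20 other ATF4 targets and 12 ER chaperones, and none was lower in the 7 lists. Of all genes 0.805% were higher and 0.812% lower, so 1 gene over the 7 lists is near the background. Cebpd had 5.39, 6.28 and 4.78 TPM with RECTAS, against 3.16, 3.40 and 4.50 TPM with vehicle (difference 0.47, SE 0.16; limma, adjusted p = 0.9999). Cebpd was named in colon for its small p, and its groups were apart there. They were apart in the other tissues too, with 56.0, 63.1 and 60.8 TPM in RECTAS lungs, against 19.5, 28.3 and 46.9 TPM in vehicle lungs, and with 2.72, 4.10 and 2.95 TPM in RECTAS livers, against 1.2, 1.8 and 2.19 TPM in vehicle livers. Of all genes, 3.43% in colon, 16.1% in lung and 5.75% in liver were apart and higher. List medians in colon ran between 0.051 and 0.11, beside 0.018 for all genes. The median of the 12 ER chaperones was 0.093, and 0.046 without both libraries numbered 1. Averaged over the 3 tissues, Ddit4 (1.29, SE 0.13; limma, adjusted p = 0.000433) and Herpud1 (0.39, SE 0.06; adjusted p = 0.0174) passed, 2 of 22 tested other ATF4 targets, and no gene of the other 6 lists did. That contrast was chosen after seeing the data and called 0.188% of all 17537 genes. Without RECTAS colon library 1 the adjusted p of Herpud1 was 0.05003, which ended its call.

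**Figure D5:**
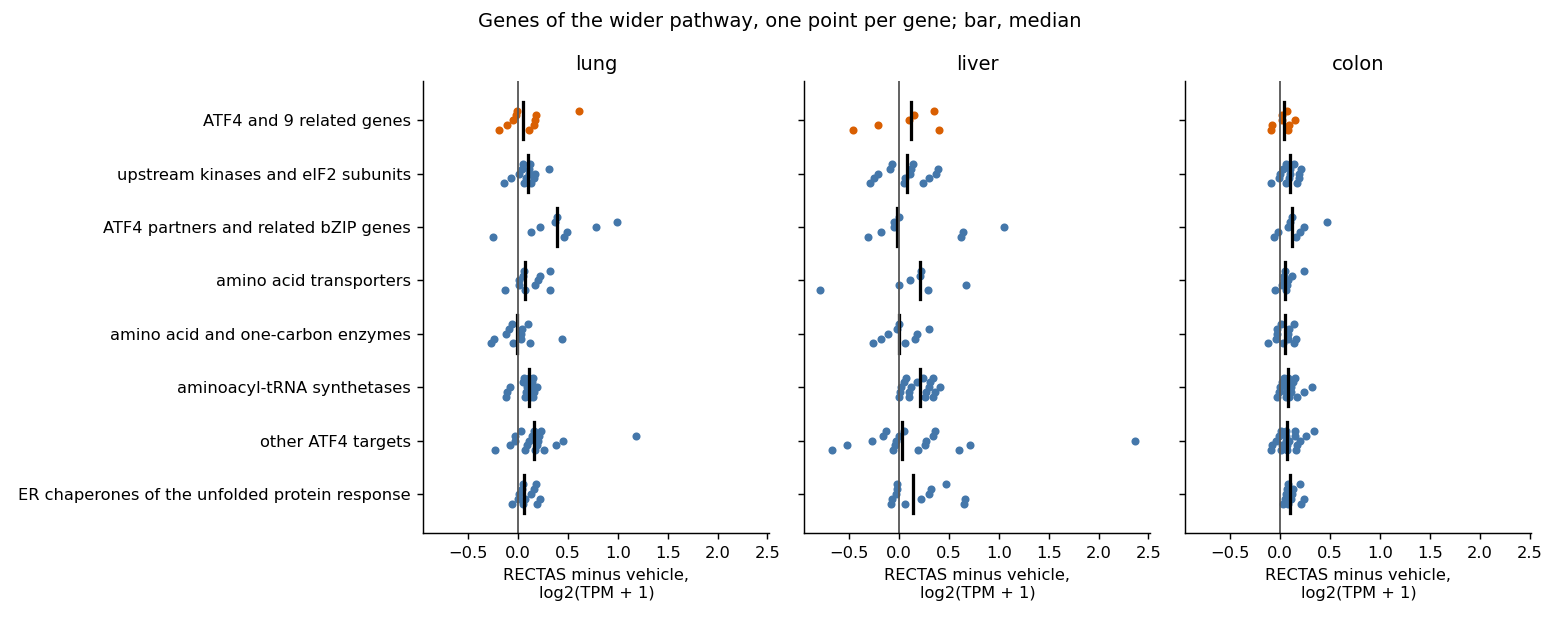
RECTAS minus vehicle differences in log2(TPM + 1) for each tested gene (points) of the 10 members (orange) and of 7 related lists (blue), with list medians (bars), in lung, liver and colon. Ddit4 is the point at 2.36 in liver; the bZIP list has its highest median, 0.39, in lung.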

How the data were processed

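Per the labels' protocols, TRIzol was used for extraction and a TruSeq stranded mRNA kit for the libraries. TPM per gene, as deposited by the authors, was used without change in 18 libraries. HISAT2 2.2.0, RSEM 1.3.0 and GRCm38 are named per the submitters' processing notes, without roles; annotation release and filters: not given in the sources used here. TPM sums to a fixed total, so abundant genes lower all others, and depth is unknown.

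Groups came from the labels. Genes reaching 1 TPM in 3 or more libraries of a fit entered limma 3.58.1 (R 4.3.3) on the log2(TPM + 1) scale, two-sided with a mean-variance trend and adjusted by Benjamini-Hochberg over all tested genes at 0.05: RECTAS against vehicle per tissue, vehicle tissues among 9 libraries, and interactions among 18. Annotation and figures used Python 3.11.15 and pandas 2.3.3; 55141 identifiers matched GENCODE M21. The procedure was tested on simulated data. No pair of libraries was identical (0; highest correlation 0.995).

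The 10 genes and 7 lists were chosen with earlier results of these data known. All 10 are named; per list and tissue up to 3 genes with the smallest p are named, as is Cebpd in lung, whose values were seen. For likeness, the gene with the highest correlation is named, except for Phgdh, where it is not reported here. Tried as alternatives were median ratio scaling, quantile normalisation, rescaling after removal of mitochondrial and the top 20 genes, other pseudocounts (0.1 and 5 TPM) and filters (none, 5 TPM), a joint fit of 18 libraries, a replicate block, and each library left out.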

Additional observations from a re-analysis of the deposited data

How the results depend on the processing

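The counts of called members moved by no more than 1 in the tissue comparisons (9 to 10 in liver over colon, 5 to 7 in lung over colon, where 6 passed, and 8 to 9 in lung over liver) and were 0 under every alternative run in the RECTAS comparisons and their interactions. The fit with a replicate block called 0 members in lung, liver and colon; the numbers were not taken as pairs, because not every same-numbered correlation of deviations was over 0.1: in lung they were 0.49, -0.0076 and 0.46 for numbers 1, 2 and 3, and they ran between -0.015 and 0.015 in liver and -0.35 and 0.35 in colon. Among members called in the main fit, signs turned under median ratio scaling for Atf4 in liver over colon (0.25, adjusted p = 0.123 by limma) and lung over liver (-0.25, 0.127). Under quantile normalisation they turned for Psat1 in lung over colon (-0.13, adjusted p = 0.389 by limma), Mthfd2 in lung over liver (-0.079, 0.675) and Sesn2 in lung over liver (-0.15, 0.380). Uncalled signs also changed under some alternatives, for Asns and Ddit3 in lung over colon and for Trib3 in lung over liver. The cause was not tested. Without a filter, Atf4 in lung over colon was not called (0.0561). Of uncalled RECTAS values the sign changed in 9 of 148 in lung, 1 of 89 in liver and 18 of 126 in colon. Counts of all genes called for RECTAS were 1 in lung (0 to 37, the highest in the fit of 18), 2 in liver (0 with the replicate block, 134 in the fit of 18) and 0 in colon (0 to 2), and 4 (0 to 32), 5 (0 to 13) and 2 (0 to 26) for the interactions of liver over lung, liver over colon and lung over colon. With 3 libraries a group and no read depth in TPM, values under 1 TPM (the enzymes in liver, Trib3 and Chac1 in colon) are imprecise.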
